A study of Mus musculus with 8 samples.

Results

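The 46 genes described here encode the DNA replication machinery: the origin licensing factors and the MCM2-7 helicase, the factors that activate it, the sliding clamp and its loader, the replicative polymerases and primase, single-strand binding proteins, enzymes of deoxynucleotide supply, nucleases and ligase, and factors that act at the fork and on new chromatin. They were chosen by name from a fixed list, and each was read from the brightest non-control probe carrying its name. All 46 of 46 were found (Orc6 under its older alias Orc6l) among 18004 genes tested. Each was well above background in both channels of all 8 arrays.

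The study asked what THOC5, a subunit of the THO complex that couples transcription to mRNA export, does in macrophage differentiation under CSF-1, the growth factor of this lineage. Cytoplasmic RNA from bone marrow derived macrophages of mice on a C57BL/6 x B6:129 Ola background was hybridised to 8 dual-colour Agilent arrays. Control cells carried ERT2 Cre, a Cre recombinase that tamoxifen activates, and flox cells carried ERT2 Cre and Thoc5 (flox/flox), so all 4 groups carried the recombinase. Each array compared cells after 3 days under CSF-1, given tamoxifen or none, with day 0 cells of the same genotype. Each group had 2 arrays, from biological experiments 1 and 2. The day 0 RNA, which had no tamoxifen, was shared by both arrays of a genotype and experiment, giving 4 day 0 RNAs. The day 3 RNA was in the red channel in experiment 1 and in the green channel in experiment 2. The promoter that drives the recombinase, the tamoxifen dose, the ages and the number of animals are not given in the sources used here.

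A cell licenses its replication origins in G1 by loading MCM2-7 rings with the help of ORC, CDC6 and CDT1. In S phase CDC45 and the GINS complex turn the rings into active helicases, and polymerase alpha-primase, delta and epsilon copy the DNA with PCNA as their clamp. Many of these genes are transcribed at the G1/S boundary under E2F factors, and their transcripts are low in cells that have left the cycle, so their level is commonly read as a mark of proliferation. CSF-1 drives both the division and the differentiation of bone marrow macrophage precursors.

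Thoc5 itself had log2 ratios of day 3 over day 0 of -3.04 and -3.02 on the flox arrays with tamoxifen (experiments 1 and 2, in this order throughout). Its ratios were -0.74 and -0.77 in flox cells without it, -0.40 and -0.28 in control cells and -0.21 and -0.15 in control cells with tamoxifen. The targeted gene was lowest on both flox arrays with tamoxifen. Without tamoxifen its ratio differed between flox and control cells by -0.42 ± 0.10 SE (adjusted p = 0.073), which did not pass. Between 52.0% and 58.6% of the spots of a channel were well above background, and 0 spots were saturated. Markers of other blood cells were measured in the day 0 RNA. The 13 measured of 14 listed neutrophil markers had a median ratio between -3.22 and -3.84 on the 8 arrays, and the summed intensity of these markers was 18.9 to 19.2 (log2) in control day 0 RNA, 19.6 to 19.8 in flox day 0 RNA and 15.6 to 16.4 at day 3. All 8 megakaryocyte markers fell in every group. Stem and progenitor markers had median changes of -0.91 in control cells, -0.99 with tamoxifen, -1.23 in flox cells and -1.44 with tamoxifen. Erythroid markers (6 of 10 measured) had -0.36, -0.46, -0.91 and -0.85. The summed intensity of B-lineage markers (5 of 9 measured) was 11.8 to 12.7 at day 0. At day 3 it was 13.4 to 14.0 in control and 11.8 to 13.2 in flox cells, while the median change of this list was below 0 in every group. Macrophage markers were high in both channels, with a summed intensity of 20.3 to 20.4 at day 3 and 19.4 to 20.1 at day 0, and 5 to 8 of 12 rose while 0 to 4 fell. Over all genes 23.3% to 25.5% rose and 33.3% to 34% fell in these groups. In bulk RNA, fewer cells of a type and less RNA per cell cannot be told apart, and the part that the changing mixture of cells plays in the results below was not tested.

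In control cells most replication genes fell from day 0 to day 3, and in flox cells the median fall was smaller. Of the 46 genes, 40 were lower and 2 higher at day 3 in control cells, with a median log2 ratio of -1.31. Over all genes tested 34% were lower and 23.3% higher, with a median of -0.058. With tamoxifen, 38 were lower and 2 higher in control cells (median -1.08, against 33.7% of all genes lower and 23.9% higher). In flox cells 31 were lower and 5 higher (median -0.59, against 33.3% lower and 23.9% higher), and with tamoxifen 30 were lower and 5 higher (median -0.51, against 33.4% lower and 25.5% higher). A gene is called here at an adjusted p under 0.05 in the limma fit over all genes. In total 26 genes were lower in all 4 groups, 7 in 3 groups, 6 in 2 groups, 2 in 1 group and 5 in none, and 32 had a ratio below 0 on all 8 arrays. These counts across groups and arrays were not made over all genes, so they only describe the members. The medians of the 2 experiments were -1.52 and -1.15 in control cells, -1.31 and -0.88 with tamoxifen, -0.68 and -0.54 in flox cells, and -0.72 and -0.31 in flox cells with tamoxifen, so experiment 1 had the larger falls in every group. Leaving out 1 of the 2 flox arrays with tamoxifen lowered the number called in that group from 35 to 17 (without experiment 1) or 21 (without experiment 2).

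**Figure D1:**
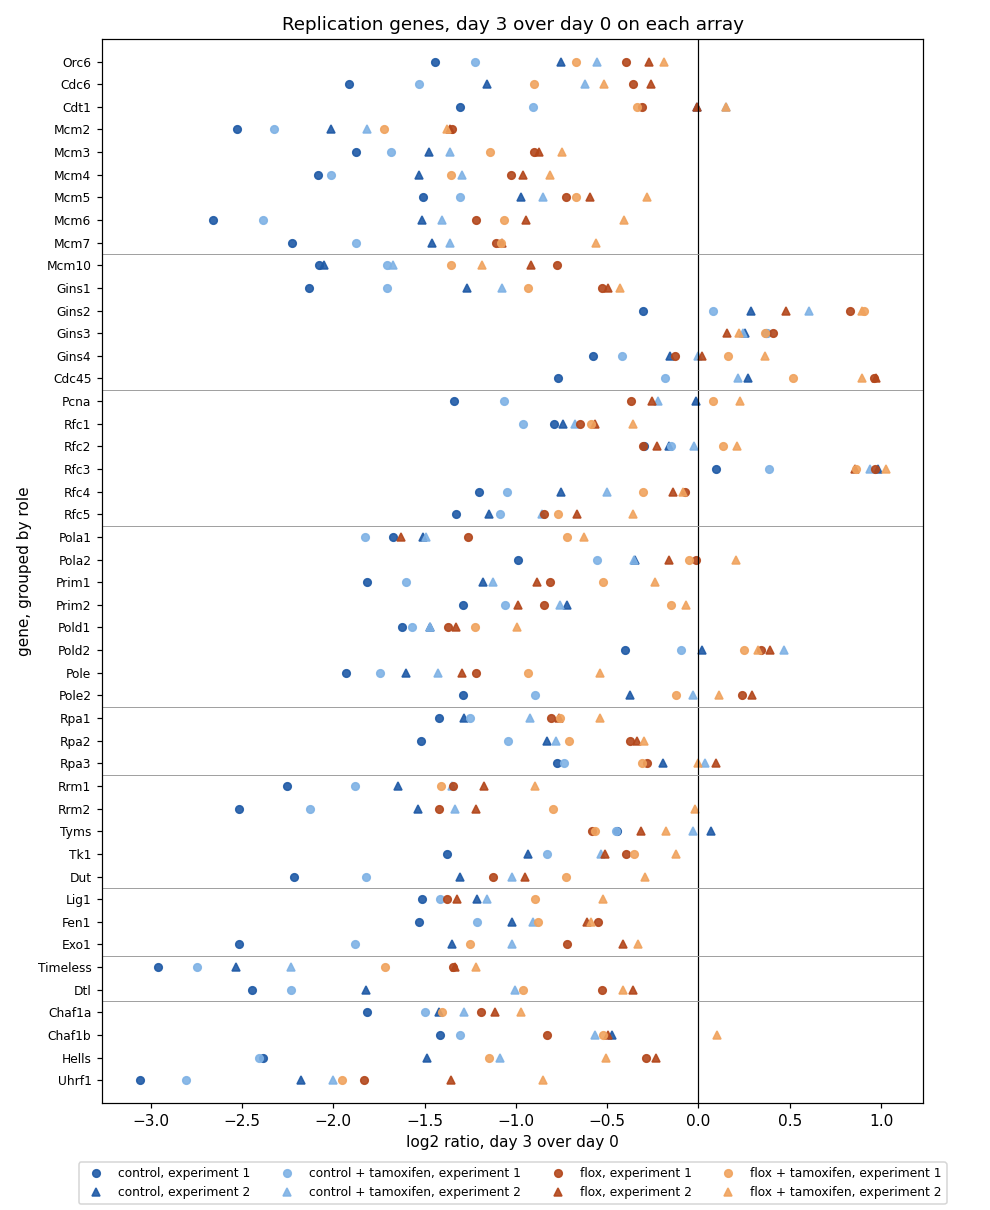
Log2 ratio of day 3 over day 0 for each of the 46 replication genes (rows, grouped by role with grey lines) on each of the 8 arrays; colours mark the 4 groups, circles experiment 1 and triangles experiment 2. Points of control cells lie farthest to the left, points of flox cells lie nearer to 0, and Gins2, Gins3, Cdc45, Rfc3 and Pold2 have most points at or above 0.

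The 6 subunits of the MCM2-7 helicase, the ring that unwinds DNA ahead of the fork, fell in all 4 groups. Their median change was -1.82 in control cells, -1.63 with tamoxifen, -1.04 in flox cells and -0.88 with tamoxifen. Mcm2 (probe at chr6:88833619-88833678 of mm9, the build of the array annotation) had ratios of -2.53 and -2.01 in control cells, -2.32 and -1.82 with tamoxifen, -1.35 and -1.36 in flox cells and -1.72 and -1.38 with tamoxifen. All 4 control arrays lay below all 4 flox arrays for this subunit. Its fitted fall was 4.82-fold in control cells (-2.27 ± 0.11 SE on the log2 scale, adjusted p = 3.9e-05) and 2.56-fold in flox cells (-1.36 ± 0.11, adjusted p = 0.000171).

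Mcm6 (probe at chr1:130228178-130228237) had the widest gap between the experiments among the 6, with -2.66 and -1.51 in control cells and -2.38 and -1.41 with tamoxifen against -1.22 and -0.94 in flox cells and -1.07 and -0.41 with tamoxifen. Mcm3 (probe at chr1:20793136-20793195) had ratios of -1.88 and -1.48, -1.68 and -1.36, -0.90 and -0.88 and -1.14 and -0.75 in the same order of groups. Neither gene had a control array that overlapped the flox arrays. Mcm4 (probe at chr16:15624372-15624431) gave -2.08 and -1.53 in control cells, -2.01 and -1.29 with tamoxifen, -1.03 and -0.96 in flox cells and -1.35 and -0.81 with tamoxifen. Its lowest flox array, from experiment 1 with tamoxifen, reached into the control range of experiment 2. Mcm5 (probe at chr8:77651350-77651410) gave -1.51 and -0.97, -1.31 and -0.85, -0.72 and -0.59 and -0.67 and -0.28, the smallest falls of the 6. Mcm7 (probe at chr5:138605925-138605984) gave -2.23 and -1.46, -1.88 and -1.36, -1.11 and -1.07 and -1.08 and -0.56, and its control and flox arrays did not overlap.

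**Figure D2:**
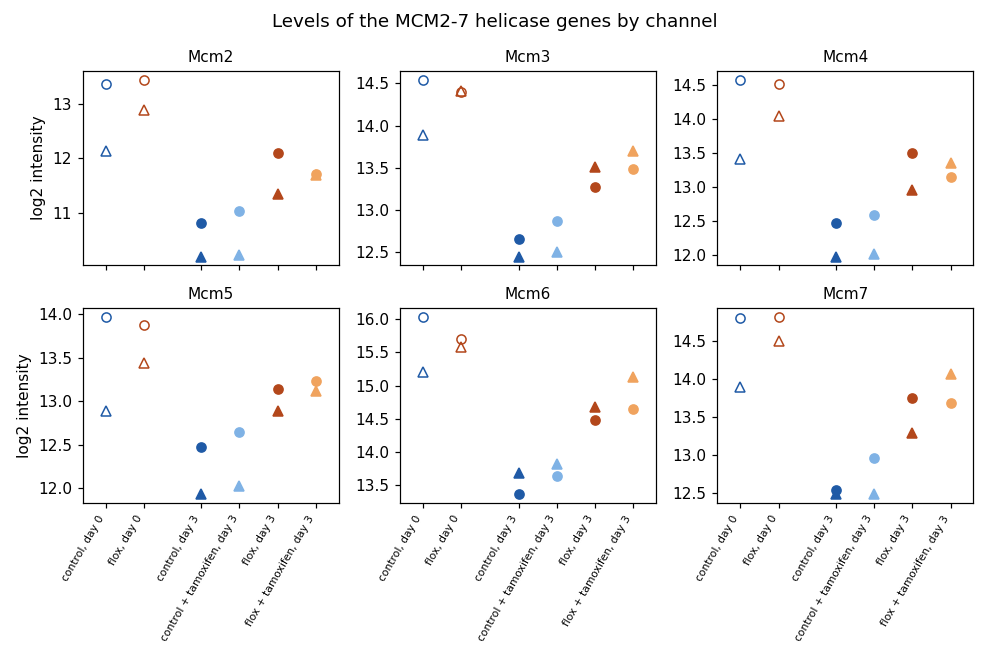
Log2 intensity of the 6 MCM2-7 genes in each channel after normalisation between arrays: open symbols are the 4 day 0 RNAs (mean of 2 arrays each), filled symbols the 8 day 3 samples, circles experiment 1 and triangles experiment 2. Each panel has its own axis; flox and control cells overlap at day 0 in every panel, and every flox sample lies above every control sample at day 3.

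Of the other licensing genes, Orc6, a subunit of the origin recognition complex, fell in all 4 groups, with -1.44 and -0.75 in control cells and -0.39 and -0.27 in flox cells. Cdc6 loads the MCM rings onto origins and fell in 3 groups. Its ratios were -1.91 and -1.16 in control cells, -1.53 and -0.62 with tamoxifen, -0.36 and -0.26 in flox cells and -0.90 and -0.52 in flox cells with tamoxifen. Flox cells without tamoxifen, where Cdc6 did not pass (-0.31 ± 0.14 SE, adjusted p = 0.102), had the ratios nearest to 0. Cdt1, the partner of CDC6 in licensing, was lower in experiment 1 than in experiment 2 in every group. It had ratios of -1.31 and -0.0059 in control cells, -0.91 and 0.15 with tamoxifen, -0.31 and -0.0066 in flox cells and -0.34 and 0.15 with tamoxifen, and it was called lower only in control cells without the drug (-0.66 ± 0.17 SE, adjusted p = 0.0172).

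Promoter sequence was taken from the RefSeq table (GRCm38.p6), where 38 of the 46 members had an entry, and searched for words bound by E2F factors. The 4 words TTTCCCGC, TTTCGCGC, TTTGCCGC and TTTGGCGC were searched on both strands in the 250 bases upstream of the start site. Of the 38 promoters, 10 (26.3%) held at least 1 of them, against 583 of 27025 in the whole table (2.16%) and 1 of 32 promoters of a list of mitosis genes (3.12%). CCAAT, searched on both strands, was in 60.5% of the replication promoters, 75.0% of the mitosis promoters and 37.5% of all. The cell cycle words TTTGAA and TTTAAA were in 18.4%, 53.1% and 28.1% respectively. These are letter matches in a fixed window, not measured binding. The windows below are shown because they belong to helicase subunits that fell in every group (Mcm5, Mcm6, Mcm7), to the genes with the largest flox against control differences without tamoxifen (Dtl, Hells), to a polymerase gene that moved with tamoxifen in flox cells (Pola1) and to a member that rose (Rfc3). They run 5′ to 3′ on the strand of the gene, with the matched E2F word in capitals. In Mcm5 the words TTTCGCGC and, on the other strand, TTTGGCGC overlap.
Mcm5 (chr8:75109320-75109407, plus strand): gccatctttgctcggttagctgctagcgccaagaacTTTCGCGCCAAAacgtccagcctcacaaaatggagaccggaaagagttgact
Mcm6 (chr1:128359706-128359792, minus strand): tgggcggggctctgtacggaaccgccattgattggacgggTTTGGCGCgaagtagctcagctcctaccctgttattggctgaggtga
Mcm7 (chr5:138172001-138172088, minus strand): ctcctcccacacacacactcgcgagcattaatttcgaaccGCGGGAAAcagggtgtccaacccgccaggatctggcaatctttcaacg
Dtl (chr1:191575545-191575592, minus strand): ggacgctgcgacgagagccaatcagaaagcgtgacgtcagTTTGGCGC
Hells (chr19:38930888-38930975, plus strand): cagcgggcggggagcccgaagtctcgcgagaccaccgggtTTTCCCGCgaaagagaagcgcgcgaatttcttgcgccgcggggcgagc
Pola1 (chrX:93632246-93632333, minus strand): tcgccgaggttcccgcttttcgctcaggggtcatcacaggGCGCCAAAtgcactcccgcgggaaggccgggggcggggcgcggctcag
Rfc3 (chr5:151651209-151651258, minus strand): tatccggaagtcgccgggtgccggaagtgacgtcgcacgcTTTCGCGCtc
Rfc3 holds such a word and rose, while the other 6 shown fell in control cells. Of the members with such a word that are not shown, Gins3 rose in all 4 groups, and Cdc6 and Uhrf1 fell in control cells.

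The 6 helicase activation genes split in direction. Mcm10, which joins the helicase to the polymerases, fell in all groups, with -2.08 and -2.05 in control cells, -1.70 and -1.67 with tamoxifen, -0.77 and -0.92 in flox cells and -1.36 and -1.18 with tamoxifen. Its arrays of a group lay close together, and flox cells without tamoxifen had the smallest fall. Gins1, a GINS subunit, also fell in all groups, with -2.13 and -1.27 in control cells, -1.71 and -1.07 with tamoxifen, -0.53 and -0.50 in flox cells and -0.94 and -0.43 with tamoxifen. Cdc45, the helicase cofactor, was called lower in no group. Its ratios were -0.77 and 0.27 in control cells and -0.18 and 0.21 with tamoxifen, where the experiments lay on opposite sides of 0. In flox cells it rose to 0.96 and 0.97 (1.95-fold, 0.97 ± 0.16 SE, adjusted p = 0.00263) and with tamoxifen to 0.52 and 0.90 (adjusted p = 0.00888).

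Gins2, another GINS subunit, was likewise called only in flox cells. It had ratios of -0.30 and 0.29 in control cells and 0.082 and 0.61 with tamoxifen, and of 0.83 and 0.48 in flox cells and 0.91 and 0.90 with tamoxifen, where it rose (adjusted p = 0.0151 and 0.00382). Gins3 rose a little in every group. Its ratios were 0.37 and 0.25, 0.38 and 0.24, 0.41 and 0.16 and 0.37 and 0.22, with experiment 1 above experiment 2 in every group. Gins4 went from -0.58 and -0.16 in control cells, where it was called lower (adjusted p = 0.00921), through -0.42 and 0.00034 with tamoxifen and -0.13 and 0.018 in flox cells to 0.16 and 0.37 in flox cells with tamoxifen, where it was called higher (adjusted p = 0.0298). The 4 subunits of 1 complex thus moved in different directions under CSF-1. The small rise of Gins3 rests on 1 bright probe. Its log2 levels were 16.0 to 16.2 at day 0 and 16.4 to 16.5 at day 3.

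Pcna, the sliding clamp that holds polymerases on DNA, was lower in control cells in experiment 1 and near 0 in experiment 2. Its ratios were -1.34 and -0.013 in control cells and -1.06 and -0.22 with tamoxifen, called lower in both (adjusted p = 0.0313 and 0.0369). They were -0.37 and -0.25 in flox cells and 0.082 and 0.23 in flox cells with tamoxifen, where the gene did not pass (0.16 ± 0.21 SE, adjusted p = 0.55). Among the clamp loader genes, Rfc1 and Rfc5 fell in all 4 groups, Rfc5 with ratios of -1.33 and -1.14 in control and -0.85 and -0.66 in flox cells. Rfc3 was the only member of the clamp group that rose, and it rose in all 4. Its ratios were 0.10 and 0.98 in control cells, 0.39 and 0.94 with tamoxifen, 0.96 and 0.86 in flox cells and 0.86 and 1.03 with tamoxifen. The low values all came from control arrays of experiment 1.

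Rfc2 had -0.30 and -0.16 in control cells, -0.15 and -0.023 with tamoxifen and -0.30 and -0.23 in flox cells. It was called lower in the untreated groups, control (adjusted p = 0.0245) and flox (adjusted p = 0.0147). Only flox cells with tamoxifen had both arrays above 0 (0.14 and 0.21), and this did not pass (adjusted p = 0.0634). Rfc4 fell in control cells (-1.20 and -0.75, and -1.05 and -0.50 with tamoxifen) and had -0.073 and -0.14 in flox cells and -0.30 and -0.086 with tamoxifen, where it did not pass (adjusted p = 0.46 and 0.185). A second, dimmer Rfc4 probe had higher fitted ratios of 0.20, 0.55, 1.09 and 0.97 in the 4 groups, so the 2 probes differ in direction under CSF-1. Without tamoxifen the ratio in flox cells was above that in control cells by 0.87 for the brighter probe and 0.89 for the dimmer one.

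Of the 8 polymerase and primase genes, 4 were lower in all 4 groups. Pola1, the catalytic subunit of polymerase alpha, which starts each strand together with primase, had -1.67 and -1.51 in control cells, -1.82 and -1.49 with tamoxifen, -1.26 and -1.63 in flox cells and -0.72 and -0.62 in flox cells with tamoxifen. Only the last pair stood apart. Prim2, the large primase subunit, likewise had its highest pair there, with -1.29 and -0.72, -1.06 and -0.76, -0.84 and -0.99 and -0.15 and -0.07, and did not pass in the last group (-0.11 ± 0.12 SE, adjusted p = 0.468). Prim1, the catalytic primase subunit, fell in all groups, with -1.81 and -1.18 in control cells, -1.60 and -1.12 with tamoxifen, -0.81 and -0.88 in flox cells and -0.52 and -0.24 with tamoxifen. Pold1 and Pole, the catalytic subunits of polymerases delta and epsilon, fell in all groups as well. Pole had -1.93 and -1.60 in control cells, -1.74 and -1.42 with tamoxifen, -1.22 and -1.30 in flox cells and -0.93 and -0.54 with tamoxifen. Pold1 had -1.62 and -1.47, -1.57 and -1.47, -1.37 and -1.33 and -1.23 and -0.99 in these groups, a narrower range.

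The accessory subunits Pola2, Pole2 and Pold2 were not lower in all groups. Pola2 had -0.99 and -0.35 in control cells and -0.56 and -0.35 with tamoxifen, called lower in both, and -0.015 and -0.16 in flox cells and -0.052 and 0.20 with tamoxifen, called in neither. Pole2 had -1.29 and -0.37 and -0.90 and -0.031 in control cells without and with tamoxifen, called lower in both (adjusted p = 0.00538 and 0.0475). In flox cells both Pole2 arrays without tamoxifen were above 0 (0.24 and 0.29), while those with it lay on both sides (-0.12 and 0.11). Pold2 had -0.40 and 0.02 and -0.093 and 0.47 in control cells, and 0.35 and 0.39 and 0.25 and 0.33 in flox cells without and with tamoxifen. It was called only in flox cells without the drug, as higher (0.37 ± 0.11 SE, adjusted p = 0.0268).

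RPA coats the single-stranded DNA behind the helicase. Its larger subunits Rpa1 (-1.42 and -1.28 in control and -0.81 and -0.76 in flox cells) and Rpa2 (-1.52 and -0.83 and -0.38 and -0.34) fell in all 4 groups. The small subunit Rpa3 had -0.78 and -0.19 and -0.73 and 0.033 in control cells without and with tamoxifen, called lower in both. In flox cells it had -0.28 and 0.10 without and -0.31 and -0.0016 with tamoxifen and was called in neither.

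Ribonucleotide reductase makes the deoxynucleotides for synthesis. Its large subunit Rrm1 fell by 3.86-fold in control cells (-2.25 and -1.65) and by 2.39-fold in flox cells (-1.34 and -1.17). With tamoxifen its ratios were -1.88 and -1.35 in control and -1.41 and -0.90 in flox cells. The S-phase subunit Rrm2 (probe at chr12:25398824-25398883) had -2.52 and -1.54 in control cells, -2.13 and -1.33 with tamoxifen, -1.42 and -1.22 in flox cells and -0.80 and -0.018 in flox cells with tamoxifen. The array of experiment 2 in the last group was the only one near 0. Dut, which keeps uracil out of DNA, fell in all groups, with -2.22 and -1.31 in control cells, -1.82 and -1.02 with tamoxifen, -1.12 and -0.95 in flox cells and -0.72 and -0.29 with tamoxifen. Tk1, a thymidine kinase, had -1.38 and -0.94, -0.83 and -0.53, -0.40 and -0.51 and -0.35 and -0.12 in the 4 groups and missed the threshold only in the last (adjusted p = 0.0903). Tyms, thymidylate synthase, had lower ratios in flox than in control cells, by -0.26 without tamoxifen, which did not pass (adjusted p = 0.204). It had -0.44 and 0.071 in control cells, -0.45 and -0.027 with tamoxifen, -0.58 and -0.31 in flox cells and -0.56 and -0.18 with tamoxifen, and it was called lower in every group except control cells without the drug (adjusted p = 0.0696).

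The nuclease and ligase genes Lig1 (DNA ligase), Fen1 (flap endonuclease) and Exo1 (exonuclease) fell in all 4 groups. Exo1 had -2.51 and -1.35 in control cells, -1.88 and -1.02 with tamoxifen, -0.72 and -0.41 in flox cells and -1.25 and -0.33 with tamoxifen. Lig1 (probe at chr7:13896609-13896667) had -1.51 and -1.21, -1.42 and -1.16 and -1.37 and -1.32 in the first 3 groups and -0.89 and -0.52 in flox cells with tamoxifen, the pair that stood above the rest.

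Timeless, which protects the moving fork, had the largest fall of the 46 genes in control cells. Its ratios were -2.96 and -2.54 in control cells, -2.75 and -2.23 with tamoxifen, -1.34 and -1.34 in flox cells and -1.72 and -1.22 with tamoxifen. All flox arrays lay above all control arrays. The fall was 6.71-fold in control cells (-2.75 ± 0.10 SE, adjusted p = 2.38e-05) and 2.53-fold in flox cells (-1.34 ± 0.10, adjusted p = 0.000169). Dtl, which directs the destruction of CDT1 in S phase, had -2.44 and -1.82 in control cells, -2.23 and -1.0 with tamoxifen, -0.53 and -0.36 in flox cells and -0.96 and -0.41 with tamoxifen. It missed the threshold in flox cells without the drug (adjusted p = 0.0551).

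Uhrf1, which brings the maintenance methyltransferase to new DNA, fell by 6.14-fold in control cells (-3.06 and -2.18) and by 3.02-fold in flox cells (-1.83 and -1.35). With tamoxifen its ratios were -2.80 and -2.00 in control and -1.95 and -0.85 in flox cells. A second, much dimmer Uhrf1 probe had fitted ratios of -0.0037, 0.12, 1.24 and 1.13. The mean of both probes gave a fall of only -0.18 in flox cells and -0.14 with tamoxifen, neither called. Hells, a chromatin remodeller, had -2.39 and -1.49 in control cells, -2.41 and -1.09 with tamoxifen, -0.28 and -0.23 in flox cells, where it did not pass (adjusted p = 0.29), and -1.15 and -0.51 with tamoxifen. Chaf1a and Chaf1b encode subunits of the histone chaperone that follows PCNA. Chaf1a fell in all 4 groups. Chaf1b had -1.42 and -0.47, -1.31 and -0.57 and -0.83 and -0.49 in the first 3 groups, called lower in each, and -0.52 and 0.10 in flox cells with tamoxifen, where it did not pass (adjusted p = 0.141).

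A list of 37 other genes of the replication pathway had smaller median changes. Of these, 27 were lower and 1 higher in control cells (median -0.85), 26 and 3 with tamoxifen (median -0.75), 17 and 6 in flox cells (median -0.34) and 20 and 4 in flox cells with tamoxifen (median -0.45). Of all genes, 33.3% to 34% were lower and 23.3% to 25.5% higher in these groups. The largest falls in control cells were those of Dna2, a helicase-nuclease (-2.22, adjusted p = 3.71e-05), and Atad5, which unloads PCNA (-2.20, adjusted p = 4.15e-05). Of 30 regulators of the G1/S transition, 21 were lower and 3 higher in control cells (median -0.69, against 34% and 23.3% of all genes). The largest falls were those of the repressive E2F factors E2f8 (-2.18, adjusted p = 5.07e-05) and E2f7 (-1.96, adjusted p = 6.1e-05).

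Flox cells kept more replication RNA at day 3 than control cells, also where tamoxifen had not been given. The difference of the log2 ratios between the genotypes was above 0 for 43 of the 46 genes without tamoxifen (median 0.68) and 44 with it (median 0.55), against medians of -0.00048 and -0.0056 over all genes. Without tamoxifen 12 members passed as higher in flox cells and 0 as lower, where 1.44% of all genes were higher and 1.43% lower. Both flox ratios lay above both control ratios for 35 members without tamoxifen, against 21.3% of all genes, and for 32 with it, against 25.4%. With tamoxifen 16 passed as higher and 0 as lower, where 5.41% of all genes were higher and 5.87% lower. The 12 were Dtl, Hells, Timeless, Exo1, Cdc6, Mcm10, Cdc45, Gins1, Uhrf1, Mcm2, Rfc4 and Mcm3. Dtl had the largest difference (1.69 ± 0.23 SE, 3.22-fold, adjusted p = 0.037), followed by Hells (1.68 ± 0.27, adjusted p = 0.039) and Timeless (1.41 ± 0.15, adjusted p = 0.031). Mcm10 had the smallest p (1.22 ± 0.11 SE, adjusted p = 0.0227).

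The 16 with tamoxifen were led by Rrm2 (1.32 ± 0.19 SE, adjusted p = 0.012), Mcm6 (1.16 ± 0.21, adjusted p = 0.0218), Timeless (1.02 ± 0.15, adjusted p = 0.0127) and Uhrf1 (1.00 ± 0.15, adjusted p = 0.0152). They also held 5 polymerase and primase genes (Pola1, Prim1, Prim2, Pold1, Pole), 3 further MCM subunits (Mcm3, Mcm5, Mcm7), and Dut, Chaf1b, Lig1 and Gins4. Mcm3, Timeless and Uhrf1 were in both lists. Within experiments, the median difference without tamoxifen was 0.98 in experiment 1 (44 of 46 above 0) and 0.38 in experiment 2 (36 of 46). With tamoxifen it was 0.61 (44 of 46) and 0.48 (42 of 46). These calls rested on the experiment term and on single arrays. Without that term 0 members passed without tamoxifen and 1 with it. Without tamoxifen the count was 0 or 1 whichever of the 8 arrays was left out. With tamoxifen it was 0 or 1 without any one of the 4 arrays given the drug, and 19 to 21 without any one of the others.

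The day 0 RNAs were compared in their own channel. In the 4 day 0 RNAs the fitted difference of flox over control cells was above 0 for 43 of 46 genes, with a median of 0.22 on the log2 intensity scale. Over all genes it was above 0 for 7916 of 18002, with a median of -0.021. None passed the limma test (0 of 46, against 0.328% of all genes higher and 0.128% lower), in a fit with 1 residual degree of freedom. Before adjustment, 5 members and 1526 of 18002 genes had a p under 0.05. Pold2 had the largest value (0.61 ± 0.21 SE, adjusted p = 0.45), from levels of 11.36 and 10.33 in control and 11.55 and 11.36 in flox cells. Cdc45 (0.51 ± 0.19, adjusted p = 0.513) and Mcm10 (0.34 ± 0.13, adjusted p = 0.517) had the smallest p after it. For Cdc45 the flox RNAs of both experiments were above the control RNA of the same experiment (10.38 and 10.31 against 10.22 and 9.46). Other members differed between the experiments. In experiment 1, Mcm3, Mcm4, Mcm5 and Mcm6 were lower in the flox RNA (14.40, 14.52, 13.88 and 15.70 against 14.55, 14.58, 13.97 and 16.02). Mcm2 and Mcm7 were slightly higher there (13.44 and 14.81 against 13.35 and 14.80). In experiment 2 all of MCM2-7 were higher in the flox RNA, Mcm4 with 14.05 against 13.41 and Mcm6 with 15.57 against 15.21. At day 0, 6 of 13 neutrophil markers passed as higher in the flox RNA, with a median difference of 1.08 over the list.

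In the day 3 channel alone, flox cells were higher in 34 of 46 genes without tamoxifen (median 0.89, against 5.53% of all genes higher and 4.49% lower) and in 40 of 46 with it (median 0.83, against 9.14% higher and 8.32% lower), and lower in 0. Both flox samples lay above both control samples for 40 genes without tamoxifen, where this held for 22.9% of all genes, and for 43 with it, against 27.3%. All 6 MCM2-7 genes were among those called in both comparisons. Dtl had day 3 levels of 9.24 and 8.91 in control and 10.99 and 10.94 in flox cells (log2 intensity, difference 1.89 ± 0.15 SE, adjusted p = 0.00329). Rrm2 had 12.95 and 12.83 in control and 14.25 and 14.81 in flox cells with tamoxifen (1.64 ± 0.19, adjusted p = 0.00395).

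Gins3 and Tyms did not differ beyond their error in either day 3 comparison. Their differences without tamoxifen were -0.018 (95% interval -0.24 to 0.20) and -0.13 (-0.36 to 0.10). Each was read from 1 probe, bright for Gins3 (16.4 to 16.5 on the day 3 arrays) and dim for Tyms (8.4 to 8.9). Whether probes at such levels would show a difference was not tested. Rfc1, Rfc2, Rpa3 and Pold1 were not called in either comparison, although their differences were above 0 in both. Other lists were measured in the same channel. Of 13 neutrophil markers, 9 were called higher and 1 lower in flox cells without tamoxifen, and 8 higher and 1 lower with it. The summed intensity of these markers was lower in flox cells: 15.7 and 15.6 (log2) against 16.1 and 16.1 without tamoxifen, and 16.0 and 15.8 against 16.1 and 16.4 with it. The macrophage list had a median difference of -0.07 and -0.049. The part of this in the replication result was not tested. Leaving out 1 flox array lowered the count without tamoxifen from 34 to 9 (experiment 1) or 15 (experiment 2). Leaving out control arrays lowered the count with tamoxifen from 40 to 12 and 6, and leaving out the flox array of experiment 2 lowered it to 7.

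**Figure D3:**
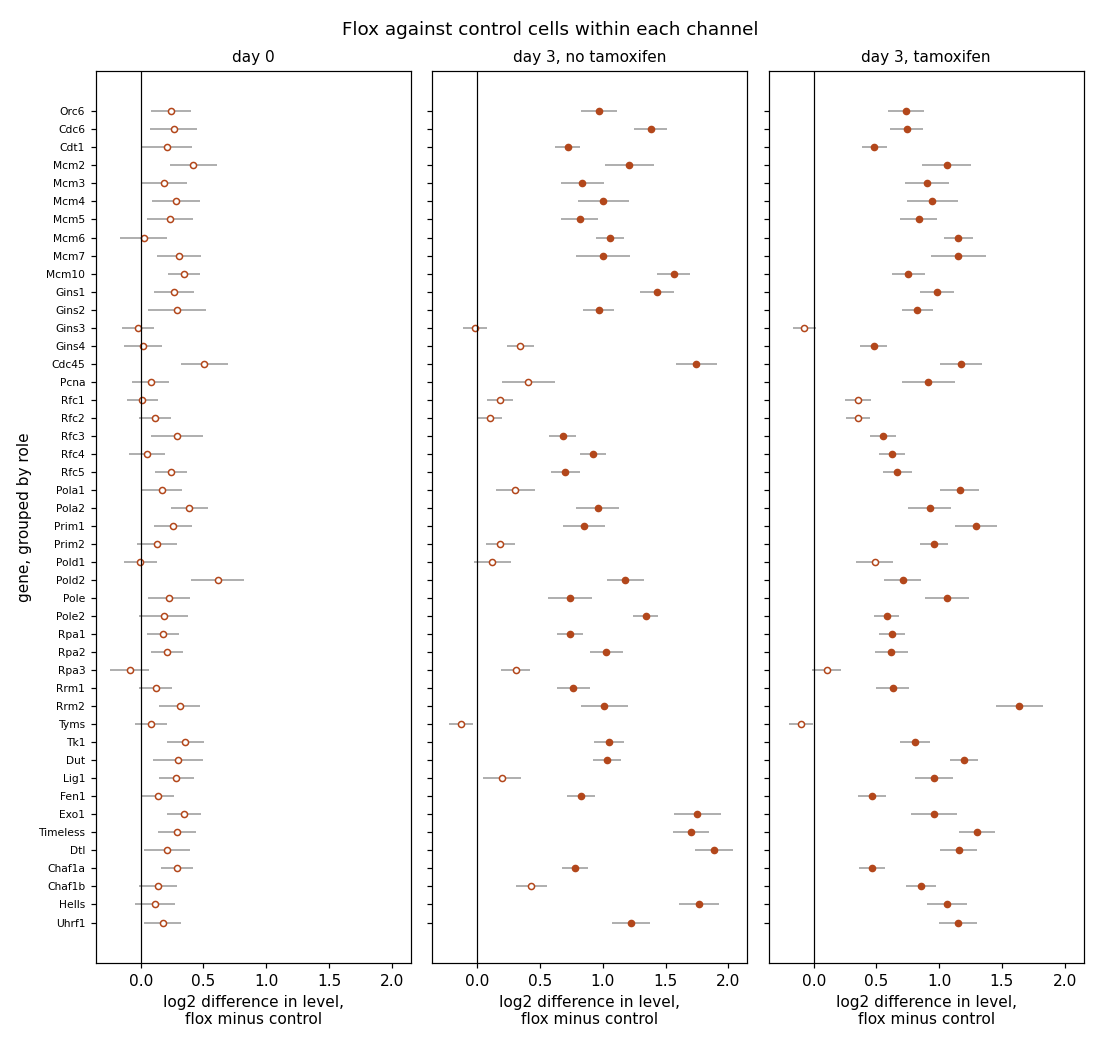
Fitted log2 difference in level, flox minus control, for each of the 46 genes in the day 0 channel (left), at day 3 without tamoxifen (middle) and at day 3 with it (right); bars are standard errors and filled points passed an adjusted p under 0.05. The points at day 0 reach at most 0.61 and none is filled, while 34 and 40 are filled at day 3.

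With tamoxifen, Thoc5 RNA fell by 2.27 on the log2 scale in flox cells, while the replication genes had a median change near 0. In flox cells 5 of 46 members were called higher with tamoxifen and 0 lower, against 4.85% of all genes higher and 4.17% lower, with a median change of 0.092. They were Lig1 (0.64 ± 0.11 SE, 1.56-fold, adjusted p = 0.0231), Rrm2 (0.91 ± 0.19, 1.88-fold, adjusted p = 0.0343), Prim2 (0.81 ± 0.17, adjusted p = 0.0395), Rfc2 (0.44 ± 0.094, adjusted p = 0.0401) and Pola1 (0.77 ± 0.17, adjusted p = 0.0432). Their values on each array are given above. The 5 were picked on these same arrays, so the lack of overlap between their treated and untreated flox arrays is no further support. Members at the other end were Hells (-0.57 ± 0.27, adjusted p = 0.261) and Mcm10 (-0.43 ± 0.11, adjusted p = 0.0674), which did not pass. The median change was -0.034 in experiment 1, with 21 of 46 genes above 0, and 0.19 in experiment 2, with 37 above 0. The count of 5 became 0 without the experiment term. It was 0 without the flox array of experiment 2 or any one of the 4 arrays with tamoxifen, 2 without the flox array of experiment 1, and 5 without either untreated control array.

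In control cells tamoxifen gave positive values for 42 of 46 genes, with a median of 0.21, and 0 were called by limma. Over all genes 9722 of 18000 values were positive, with a median of 0.012. At an unadjusted p under 0.05 there were 7 members and 997 of all genes, of which 0 passed the adjustment (0% of all genes). The smallest p-values were those of Mcm10 (0.38 ± 0.11 SE, adjusted p = 0.731), Tk1 (0.47 ± 0.15, adjusted p = 0.748) and Rrm1 (0.33 ± 0.13, adjusted p = 0.868). The difference between the tamoxifen effects of flox and control cells was called for 0 members and for 1.14% of all genes. Before adjustment, 6 members and 2764 of 18000 genes had a p under 0.05 in this limma test. The 3 members with the smallest p were Mcm10 (-0.80 ± 0.16, adjusted p = 0.0781), Lig1 (0.56 ± 0.16, adjusted p = 0.17) and Pola1 (0.84 ± 0.24, adjusted p = 0.173). In the day 3 channel alone, 6 members were called higher and 0 lower with tamoxifen in flox cells, against 7.08% and 6.33% of all genes. There the difference of the tamoxifen effects was called lower for 1 member, Pole2 (-0.76 ± 0.14 SE, adjusted p = 0.0451), and higher for 0, against 1.61% and 1.79%. The rise of the 5 genes in flox cells was therefore not shown to differ from the change in control cells.

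**Figure D4:**
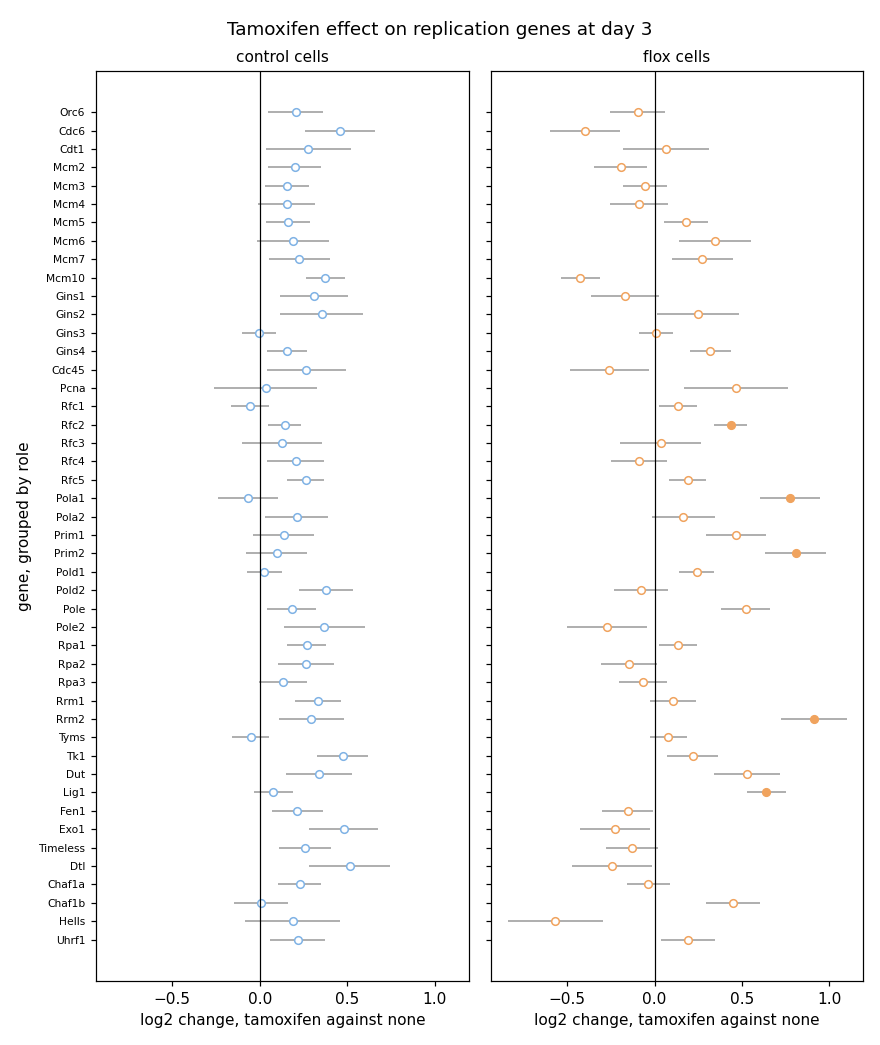
Fitted log2 change with tamoxifen for each of the 46 genes in control cells (left) and flox cells (right), with standard errors; filled points passed an adjusted p under 0.05. Control cells have 42 of 46 points above 0 and none filled, and flox cells have points on both sides of 0 with 5 filled (Lig1, Rrm2, Prim2, Rfc2 and Pola1).

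Genes of mitosis and the kinetochore, a list of 38, also fell in control cells (36 lower, median -1.53, against 34% of all genes lower). Without tamoxifen 26 of 38 were higher and 1 lower in flox than in control cells (median 0.85, against 1.44% of all genes higher and 1.43% lower). With it 1 was higher and 5 were lower (median -0.010, against 5.41% and 5.87% of all genes), where 16 replication genes were higher and 0 lower. The difference of the tamoxifen effects was called for 9 of 38 mitosis genes, all negative (median -0.74), and for 0 of 46 replication genes (median -0.12), where 1.14% of all genes were called. The largest were those of Ube2c, an enzyme that marks mitotic cyclins for destruction (-2.02 ± 0.15 SE, adjusted p = 0.00897), and Ccnb2, a mitotic cyclin (-1.89 ± 0.18, adjusted p = 0.0186). Ube2c had ratios of -1.57 and -1.50 in control cells, -0.76 and -0.53 with tamoxifen, -0.25 and -0.22 in flox cells and -1.48 and -1.27 with tamoxifen, so tamoxifen arrays lay higher in control cells and lower in flox cells. The 2 lists were not tested against each other.

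**Figure D5:**
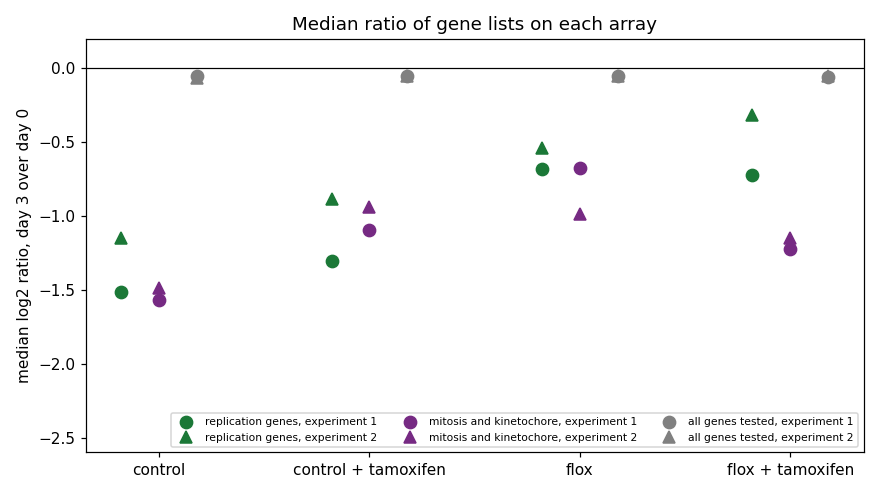
Median log2 ratio of day 3 over day 0 over the 46 replication genes, the 38 mitosis and kinetochore genes and all 18004 genes on each array; circles are experiment 1 and triangles experiment 2. In flox cells with tamoxifen the replication medians were -0.72 and -0.31 and the mitosis medians -1.22 and -1.15.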

How the data were processed

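Per the labels, cytoplasmic RNA was hybridised to dual-colour Agilent arrays, 2 per group, with day 3 and day 0 RNA in opposite dyes on the 2 slides, 1 for each experiment. The authors deposited scanner output of Feature Extraction 10.7.3.1, whose mean and background intensity columns were used here. They also deposited a value table of log10 ratios, which differed from the scanner's ratios by at most 5e-10 and had a median of 0 on each array. The deposited log10 ratios were used as an alternative only.

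Intensities were background-corrected (normexp, offset 50) and loess-normalised within arrays in limma 3.58.1 (R 4.3.3), and ratios were turned to day 3 over day 0 by the labelled dyes. Control and outlier spots were left out. Of 39429 probes, 22407 were kept, each detected above background by the scanner's own test on the 2 arrays of some group in a channel. Of all probes, 26412 were named through their RefSeq accession and the others kept the file's name. The brightest probe stood for a gene (18004 genes).

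The fit had the 4 group means and an experiment term, with Benjamini-Hochberg adjustment over all genes and a threshold of 0.05. Experiments pair the arrays by label (same slide, dye direction and, within a genotype, day 0 RNA), and deviations from group means correlated between groups at 0.31 to 0.73. Experiment, slide and dye direction cannot be told apart. The experiment term removes the shift between experiments that all groups share. Standard errors and p-values measure the spread between the 2 experiments that is left, so a called gene can still differ widely between experiments. Levels in 1 channel were normalised between arrays (Aquantile), and the 4 day 0 RNAs were fitted with 1 residual degree of freedom. The fit was tested on simulated data. The number of arrays limits the precision.

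Values on each array are given for MCM2-7, Pcna, the 3 members with the lowest and highest change under CSF-1 in each group, members not lower in all 4 groups, and up to 10 called members of each other comparison (or the 3 with the smallest p). Members and lists were chosen with earlier results of these data known. Alternatives were no experiment term, median centring, the deposited table, other dim-probe filters, a random block for shared day 0 RNA, the mean of probes, 1 channel, and leaving out each array.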

Additional observations from a re-analysis of the deposited data

Results flagged for a closer look

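The genotype difference was tested for each gene in the limma fit, and 28 differences passed, all higher in flox cells (2 arrays against 2). They were 12 without tamoxifen, where 1.44% of all genes were higher, and 16 with it, where 5.41% were. Some genes are in both lists, and the calls rested on the experiment term and on single arrays, as given above. Without tamoxifen the log2 differences of the origin and helicase genes were 1.23 for Cdc6, 0.91 for Mcm2, 0.79 for Mcm3, 1.22 for Mcm10, 1.19 for Gins1 and 1.22 for Cdc45. The other 6 were 0.87 for Rfc4, 1.37 for Exo1, 1.41 for Timeless, 1.69 for Dtl, 1.68 for Hells and 1.03 for Uhrf1. The flox cells of this comparison had not been given tamoxifen. Their Thoc5 ratios were nevertheless below those of control cells, as given above, a difference that did not pass.

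With tamoxifen the differences of the helicase and GINS genes were 0.58 for Mcm3, 0.60 for Mcm5, 1.16 for Mcm6, 0.80 for Mcm7 and 0.47 for Gins4. Those of the polymerase and primase genes were 0.99 for Pola1, 0.98 for Prim1, 0.80 for Prim2, 0.41 for Pold1 and 0.85 for Pole. The remaining 6 were 1.32 for Rrm2, 0.91 for Dut, 0.58 for Lig1, 1.02 for Timeless, 0.73 for Chaf1b and 1.00 for Uhrf1. Whether the difference with tamoxifen differs from that without it is the same test as the difference of the tamoxifen effects, which passed for 0 of 46 members. The cause of the differences was not tested.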

How the results depend on the processing

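Under CSF-1 the counts of members called held within 1.5 times in control cells (36 to 42 and 36 to 40 under other settings, 35 to 42 and 33 to 41 with 1 array left out) and in flox cells without tamoxifen (25 to 36 with 1 array left out). In flox cells with tamoxifen, leaving out 1 array gave 17 to 35 in place of 35. The pairing by experiment mattered most where groups were compared with each other: with no replicate block, the 5 calls for tamoxifen in flox cells became 0, the 16 for genotype with tamoxifen 1 and the 12 without it 0. Median centring gave 3 for tamoxifen in flox cells and 23 for genotype without tamoxifen. The deposited table gave 1, 8 and 0 for those 3 comparisons. The day 3 channel alone gave 40 and 34 for the genotype comparisons and 1 for the difference of the tamoxifen effects, as did the random block. Leaving out 1 array gave 0 to 5, 0 to 21 and 0 to 1. For genotype in the day 3 channel, whose alternatives were chosen after seeing the data, it gave 9 to 33 without tamoxifen and 6 to 40 with it. Of members called, 33 of 42 and 33 of 40 in control cells and 22 of 36 and 15 of 35 in flox cells stayed called in every fit with 1 array left out, against 0 of 12, 0 of 16 and 0 of 5 in the other comparisons.

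Values near 0 changed sign, and the pairs below are the fitted values without experiment 1 and without experiment 2 of the group. Such a fit shifts the 1 array left in the group by the experiment term, which then comes from the other groups. A pair can therefore lie farther apart than the arrays, which in flox cells were at 0.24 and 0.29 for Pole2. For Hells they were at -0.28 and -0.23. In control cells Gins2 had 0.26 and -0.28 (0.092 in the deposited table) and Cdc45 0.14 and -0.64. With tamoxifen Cdc45 had -0.024 and 0.054 (-0.0085 after median centring) and Pold2 0.38 and -0.0021. In flox cells Pole2 had -0.041 and 0.58, Pcna -0.64 and 0.015, Cdt1 -0.48 and 0.17, Gins4 -0.16 and 0.047, Rfc4 -0.34 and 0.13 (0.49 as the mean of probes), Pola2 -0.34 and 0.17 and Hells -0.71 and 0.19. In flox cells with tamoxifen Pcna had -0.15 and 0.46, Cdt1 -0.29 and 0.11 and Pole2 -0.20 and 0.18 (0.014 in the deposited table), while Pola2 was -0.019 after median centring and Rfc4 0.39 as the mean of probes. Why the experiments differ was not tested. All 46 members were well above background in both channels of all 8 arrays.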
